A study of Mus musculus with 8 samples.

Results

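Tafazzin is the mitochondrial transacylase that remodels cardiolipin, the signature phospholipid of the inner mitochondrial membrane, and its loss causes Barth Syndrome. Cells short of amino acids, or with disturbed mitochondria, phosphorylate the translation factor eIF2alpha. Translation of the transcription factor ATF4 then rises, and ATF4 raises genes for amino acid synthesis, amino acid import and tRNA charging. Described here are the cardiomyocyte nuclei in which the sum of 10 amino-acid stress transcripts was high. Hearts of 9-week-old male wild-type (WT) mice and of male mice in which Tafazzin was knocked out (Taz-KO) were profiled by single-nucleus RNA sequencing, with 1 library per mouse and 4 mice per genotype. The whole heart was cryopreserved, and no other allele or treatment is named in the labels. The extent of the deletion and the genetic background are not given in the sources used here.

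A barcode was taken as a cardiomyocyte if it held at least 800 non-mitochondrial UMIs, that is counted RNA molecules, and if Ryr2, Ttn, Fhod3, Ctnna3 and Rbm20 together held at least 1.2 times the share of UMIs that they held in its whole library. It was kept if Asns, Slc7a11, Slc7a5, Chac1, Mthfd2, Aldh1l2, Psat1, Trib3, Sesn2 and Ddit3 together reached at least 3 UMIs and at least 3 per 10,000 non-mitochondrial UMIs. Of 169193 barcodes, 35452 were cardiomyocytes, and 8292 of these passed the cut. These 8292 are called nuclei above the cut, and the other 27160 nuclei below the cut. The study put about 10,000 nuclei of a heart into each library. After its own filters it kept fewer nuclei in all than these 169193 barcodes. The barcodes here therefore include some that it did not keep, and how many of the 35452 are such was not tested. Of the nuclei above the cut, 8096 came from Taz-KO mice and 196 from WT mice. The rule marks a range of a score and not a cell type, and its 10 genes were picked with genotype differences known, so their levels in the chosen nuclei and the share of nuclei that passed are described without a test. A test of each gene in nuclei chosen by the other 9 follows further on.

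The libraries held 20025456 to 348080773 UMIs. Taz-KO replicates 4685 and 5301 held 3492 and 5571 barcodes, and the other 6 libraries held 21190 to 36308. The libraries therefore differ in how many nuclei stand behind a value: only 29 Taz-KO nuclei of replicate 4685 were below the cut. Of the barcode sequences, 3295 occurred in more than 1 library, and these include 317 of the nuclei above the cut (3.82%). Both classes were chosen for a high share of 5 cardiomyocyte genes, so markers outside that choice are given, as a description. Myh6, Tnnt2, Actn2, Mybpc3 and Tnni3 together were at 8599 to 13701 CPM (counts per 1000000 non-mitochondrial UMIs of the summed nuclei) above the cut in Taz-KO mice, 8707 to 14086 CPM below the cut, and 1770 to 6816 CPM in endothelial barcodes of the same mice, which had been chosen for a low share of the first 5 genes. Ventricular markers (Myl2, Myl3, Kcnj12, Hand1 and Irx4) did not separate these classes, with 863 to 2158, 972 to 2463 and 319 to 3675 CPM. Taz itself, summed over the nuclei below the cut, was at 51.5, 48.6, 52.6 and 47.2 CPM in WT replicates 4686, 4909, 5355 and 5356, and at 30.0, 36.7, 26.7 and 33.4 CPM in Taz-KO replicates 4685, 4910, 5300 and 5301. The genotypes did not overlap, and the Taz-KO level was lower by 0.72 on the log2 scale (edgeR adjusted p = 0.0468), a call that was lost without any 1 of 7 of the 8 mice, with values of −0.57 to −0.86. Above the cut the Taz-KO mice were at 45.5, 36.8, 28.9 and 27.6 CPM of Taz, and the change from the nuclei below the cut was 0.06 on the log2 scale (edgeR adjusted p = 0.75).

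In WT mice 51 of 4616, 82 of 6530, 38 of 4850 and 25 of 4406 cardiomyocyte nuclei were above the cut. As shares these were 1.105% (exact Clopper-Pearson 95% interval 0.824 to 1.45), 1.26% (1.00 to 1.56), 0.784% (0.555 to 1.07) and 0.567% (0.368 to 0.836). In Taz-KO mice 184 of 213, 3966 of 8083, 3639 of 6073 and 307 of 681 were above the cut, that is 86.4% (81.0 to 90.7), 49.1% (48.0 to 50.2), 59.9% (58.7 to 61.2) and 45.1% (41.3 to 48.9). The genotypes stand far apart, with 0.928% ± 0.311 (SD, n = 4) against 60.1% ± 18.6 (SD, n = 4). The intervals cover counting error only and not the spread between mice. The cut counts UMIs, and the shares differed with the depth of the nuclei. Among nuclei of 3000 to 12000 UMIs they were 1.90%, 2.04%, 0.997% and 0.701% in WT mice and 80%, 45.9%, 57.8% and 44.1% in Taz-KO mice. Thinned to 2000 UMIs per nucleus, 0.0229% to 0.130% of WT nuclei and 10.4%, 4.03%, 9.38% and 8.33% of Taz-KO nuclei passed, and the order of the Taz-KO mice changed. At that depth 88.4% to 91.7% of WT nuclei and 36.3%, 53.6%, 38.8% and 48.7% of Taz-KO nuclei held none of the 10 transcripts.

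**Figure D1:**
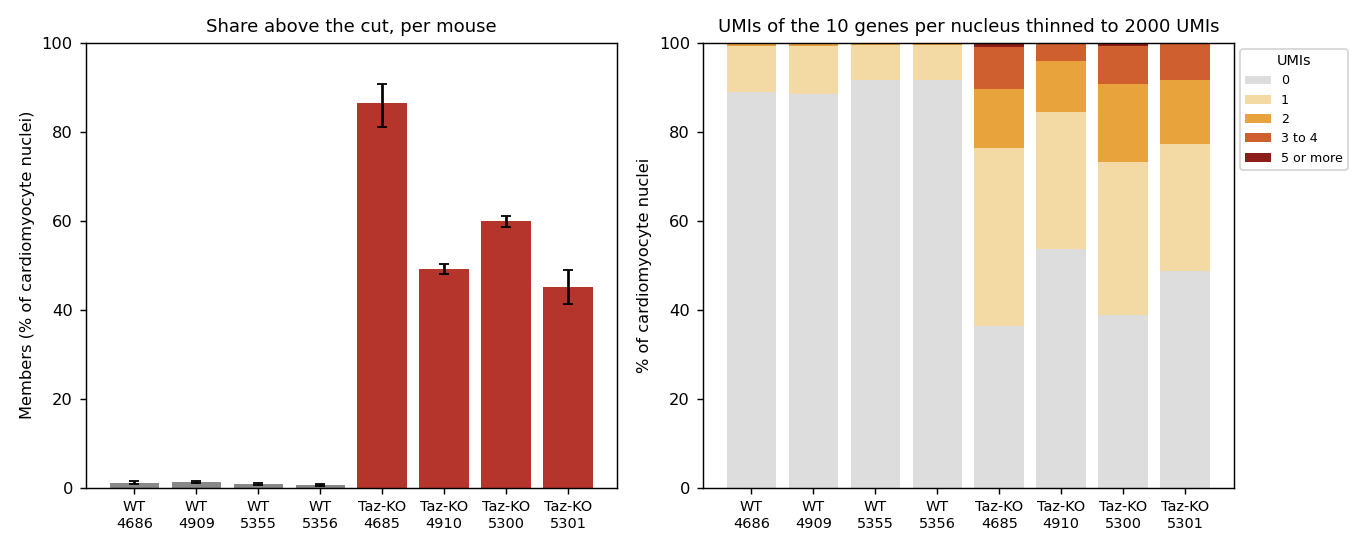
Left, share of cardiomyocyte nuclei above the cut (members, in percent) in each mouse, with exact 95% intervals of counting error. Right, cardiomyocyte nuclei of each mouse thinned to 2000 UMIs and stacked by their UMIs of the 10 genes, in percent. The 4 Taz-KO mice reach 45.1% to 86.4% on the left and the WT mice at most 1.26%, and the gray part with 0 UMIs on the right is 88.4% to 91.7% in WT and 36.3% to 53.6% in Taz-KO mice.

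The cut runs through a continuous range. Of the nuclei above it, 50.0% to 68.3% in WT mice and 15.2%, 33.6%, 12.0% and 20.5% in Taz-KO replicates 4685, 4910, 5300 and 5301 lay at 3 to 4 UMIs per 10,000. Of the nuclei below it, 2.88% to 5.30% in WT mice and 48.3%, 40.2%, 30.1% and 21.7% in Taz-KO mice lay at 2 to 3 per 10,000. Many Taz-KO nuclei thus sat on either side of the cut within a narrow margin. At 2000 UMIs per nucleus, the variance of the summed 10 transcripts over their mean was 1.13, 1.14, 1.14 and 1.28 in Taz-KO mice. In WT mice it was 1.01 to 1.07. Counting error alone gives 1, so such error bears on which side of the cut a nucleus fell. The nuclei above the cut were not alike between genotypes. In Taz-KO mice their median was 15.5, 7, 5 and 8 UMIs from 7, 4, 4 and 5 of the 10 genes, and 87.9% to 96.2% of them held 3 or more of the genes. In WT mice the median was 3 to 4 UMIs from 2 genes, and 20% to 29.4% held 3 or more. Ddit3, which encodes the stress-induced factor CHOP, made up 47.8%, 52.5%, 32.5% and 55.8% of these UMIs in WT mice, against 16.5%, 14.97%, 13.6% and 11.7% in Taz-KO mice.

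The same transcripts were also counted in barcodes with markers of other cells. The 10 genes passed the same cut in 1.16%, 1.28%, 0.530% and 0.772% of endothelial barcodes of WT mice and in 17.5%, 13.2%, 9.40% and 0.325% of those of Taz-KO replicates 4685, 4910, 5300 and 5301, whose median depth was 5590, 4160, 2876.5 and 2023 UMIs. Thinned to 2000 UMIs, the mean per Taz-KO barcode was 0.632, 0.576, 0.665 and 0.244 UMIs of the 10 genes in endothelial barcodes against 1.02, 0.672, 1.01 and 0.853 in cardiomyocyte nuclei, so the cardiomyocyte level was the higher in each of the 4 mice. In WT mice the means were 0.104 to 0.125 and 0.0878 to 0.123. The endothelial level as a ratio to the cardiomyocyte level was not the same for all genes. In Taz-KO replicate 4910 it ran from 0.253 for Aldh1l2 to 1.63 for Asns, and in replicate 5301 from 0.155 for Slc7a5 to 0.724 for Psat1. In barcodes with fibroblast markers the genotypes overlapped in the share that passed the cut. The cut was passed by 5.75%, 5.56%, 3.23% and 9.80% of them in WT mice (5 of 87, 4 of 72, 8 of 248 and 132 of 1347). This is above the share of WT cardiomyocyte nuclei. In Taz-KO replicates 4910, 5300 and 5301 it was passed by 18.6%, 7.69% and 2.59% (398 of 2141, 23 of 299 and 15 of 580), where replicate 4685 held only 1 such barcode. Thinned to 2000 UMIs, their means were 0.172 to 0.307 UMIs in WT mice and 0.638, 0.707 and 0.271 in these Taz-KO mice. Slc7a11 was at 36.2, 43.6, 35.0 and 116 CPM in the fibroblast barcodes of WT mice. It was at 52.3, 41.1 and 58.7 CPM in those of the same Taz-KO mice. Slc7a5, Mthfd2, Aldh1l2 and Sesn2 did not overlap there between genotypes, with Mthfd2 at 3.44 to 9.63 against 15.1 to 71.2 CPM. The other genes of the rule overlapped. The share of all genes without overlap in these barcodes was not taken, so this is a description and rests on few barcodes in some mice. The part of free RNA in these values was not tested.

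ATF4 binds with C/EBP factors to a composite element. The core letters of that element, TGATGNAA, were searched on both strands in the 250 bases before the start of transcription (RefSeq, GRCm38.p6), and the windows that hold them are shown because these genes chose the nuclei. Of the 10 genes 8 matched, 3 of the 8 held the letters (37.5%), and 1056 of 27025 genes of the table did (3.91%). Capitals mark the match. The windows of Asns (ENSMUSG00000029752, asparagine synthetase; chr6:7693210-7693459, minus strand), Slc7a11 (ENSMUSG00000027737, the cystine importer; chr3:50443614-50443863, minus strand) and Chac1 (ENSMUSG00000027313, a glutathione-degrading enzyme; chr2:119350992-119351241, plus strand) read as follows.
Asns: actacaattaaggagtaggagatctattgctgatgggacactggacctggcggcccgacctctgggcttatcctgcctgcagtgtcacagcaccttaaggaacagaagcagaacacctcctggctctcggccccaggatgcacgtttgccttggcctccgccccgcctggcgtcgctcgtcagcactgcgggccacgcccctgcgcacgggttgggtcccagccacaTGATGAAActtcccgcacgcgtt
Slc7a11: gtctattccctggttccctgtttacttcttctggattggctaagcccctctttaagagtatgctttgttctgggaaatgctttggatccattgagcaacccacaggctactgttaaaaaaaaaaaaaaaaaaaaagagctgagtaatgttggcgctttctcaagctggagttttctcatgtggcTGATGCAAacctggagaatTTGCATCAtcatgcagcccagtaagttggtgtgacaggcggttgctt
Chac1: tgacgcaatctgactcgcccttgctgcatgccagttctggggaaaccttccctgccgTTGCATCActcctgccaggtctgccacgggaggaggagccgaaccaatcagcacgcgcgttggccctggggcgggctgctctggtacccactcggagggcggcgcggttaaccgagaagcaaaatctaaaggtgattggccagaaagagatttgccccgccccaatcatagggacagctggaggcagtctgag
The match of Asns begins 23 bases before the start on the strand of the gene. Slc7a11 held 2 matches in opposite directions, beginning 66 and 47 bases before the start, and the match of Chac1 lay on the opposite strand, 193 bases before the start. A match is a description of letters and not of binding.

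The enzymes and importers among the 10 genes were high in Taz-KO nuclei on both sides of the cut. Asns was at 0.754, 0.926, 0.988 and 0.194 CPM in the nuclei below the cut of WT replicates 4686, 4909, 5355 and 5356, at 30.0, 15.5, 21.2 and 13.96 CPM in those of Taz-KO replicates 4685, 4910, 5300 and 5301, and at 44.0, 38.1, 64.9 and 42.7 CPM above the cut in the same Taz-KO mice. Slc7a5, the large neutral amino acid transporter, was at 1.42, 1.32, 0.823 and 1.02 CPM in WT nuclei below the cut, 14.99, 12.6, 18.4 and 21.6 CPM in Taz-KO nuclei below it, and 52.5, 36.6, 60.3 and 68.1 CPM above it. For both genes the Taz-KO mice lay above all WT mice among nuclei below the cut. This is a description, since both genes belong to the rule. Of all genes tested outside the rule, 8.19% lay in that way. Slc7a11 was at 4.03, 5.55, 3.11 and 3.93 CPM in WT nuclei below the cut, 6.66, 12.2, 18.3 and 13.7 CPM in Taz-KO nuclei below it, and 67.6, 59.2, 81.0 and 75.0 CPM above it. Psat1, of serine synthesis, was the one enzyme whose mice overlapped between genotypes below the cut. It was at 0.793 to 1.52 CPM in WT mice and at 6.66, 4.76, 6.09 and 0.790 CPM in Taz-KO mice, the last from 3 UMIs. Over all cardiomyocyte nuclei Psat1 was at 0.824 to 1.52 CPM in WT and 7.21 to 14.2 CPM in Taz-KO mice. The remaining enzymes were Mthfd2 and Aldh1l2 of the mitochondrial folate cycle, at 20.5 to 32.0 and 20.6 to 38.3 CPM in Taz-KO nuclei below the cut, and Chac1 at 3.69 to 14.2 CPM. Their WT ranges were 5.50 to 9.71, 3.40 to 7.68 and 0.570 to 1.48 CPM.

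The regulators among the 10 genes differed from one another. Trib3, a pseudokinase that binds AKT and ATF4, was at 1.52, 2.40, 1.90 and 1.16 CPM in WT nuclei below the cut, 48.3, 28.03, 31.3 and 27.9 CPM in Taz-KO nuclei below it, and 126, 77.8, 109 and 96.9 CPM above it. Sesn2, which restrains mTORC1 when leucine is short, was at 2.42 to 2.57 CPM, 6.66 to 10.7 CPM and 29.5 to 39.1 CPM in the same 3 classes. Ddit3 did not share the genotype pattern among nuclei below the cut. It was at 34.2, 33.8, 19.3 and 17.8 CPM in WT nuclei below the cut and 36.6, 33.5, 33.7 and 27.1 CPM in Taz-KO nuclei below it, with overlapping mice. The cut limits the sum of the 10 genes below it, Ddit3 included. Over all cardiomyocyte nuclei Ddit3 was at 35.3, 35.3, 20.2 and 18.7 CPM in WT mice. There it was at 93.1, 53.6, 70.7 and 48.8 CPM in Taz-KO mice, above all WT mice. The few WT nuclei above the cut held 186, 197, 152 and 215 CPM of Ddit3, more than the 98.9, 72.9, 88.4 and 64.5 CPM of Taz-KO nuclei above the cut.

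**Figure D2:**
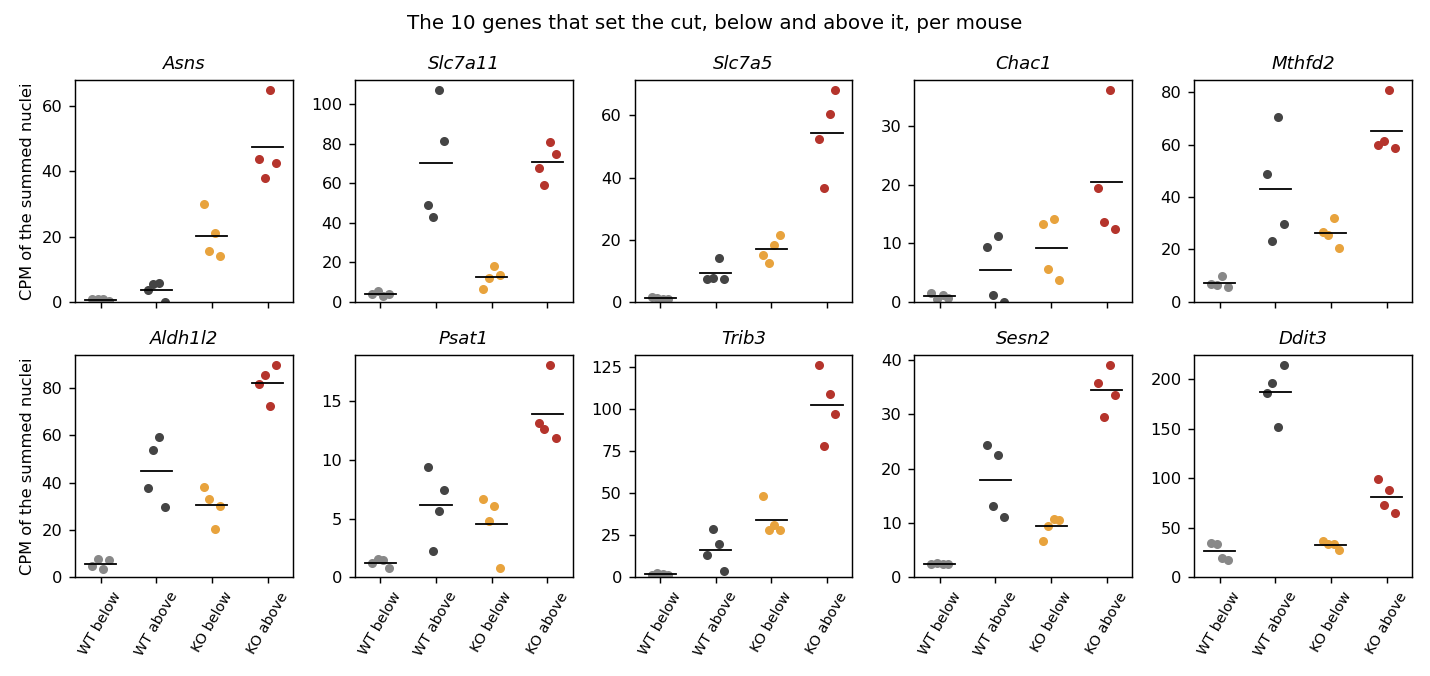
Level of each of the 10 genes (CPM of the summed nuclei, linear axis of its own per panel) below and above the cut in WT and Taz-KO (KO) mice, with 1 point per mouse and a line at the mean of 4 mice. Trib3 sits at 1.16 to 2.40 CPM in WT and at 27.9 to 48.3 CPM in Taz-KO nuclei below the cut, and Ddit3 overlaps between genotypes there and is highest in WT nuclei above the cut.

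To ask whether the 10 transcripts moved together, each gene in turn was left out of the rule, nuclei of the Taz-KO mice were chosen by the other 9, and the gene left out was compared between chosen and remaining nuclei with the mouse as a block. Slc7a11 stood 0.83 ± 0.08 (SE) higher on the log2 scale in the chosen nuclei, with 65.7 against 41.2 CPM in replicate 4685, 45.6 against 28.8 in 4910, 72.3 against 41.2 in 5300 and 67.8 against 30.6 in 5301 (edgeR adjusted p = 9.5e-06). Sesn2 was higher by 0.75, Slc7a5 by 0.61, Trib3 by 0.56, Aldh1l2 by 0.46, Asns by 0.42, Chac1 by 0.40 and Mthfd2 by 0.30 (edgeR adjusted p from 3.6e-06 to 0.0178). These 8 genes passed the test, where 1.45% (the fit for Trib3), 1.79% (Slc7a11), 2.56% (Aldh1l2), 2.88% (Sesn2), 3.1% (Slc7a5), 3.49% (Asns), 3.63% (Mthfd2) and 3.68% (Chac1) of all genes tested were called higher, with 1.91% and 3.53% for Ddit3 and Psat1. Each of them was higher in all 4 mice except Asns, which in replicate 4685 was at 41.1 CPM in the chosen and 51.0 CPM in the remaining nuclei. Psat1 and Ddit3 were at 0.46 and 0.28 with adjusted p of 0.0526 and 0.0556 by edgeR. The count was 6 without replicate 4910, 4 without replicate 5300, 9 when each nucleus was paired with the one nearest in depth and 0 without the block. Pairs chosen by all 10 genes in that way still differed in depth. Their medians were 7196 against 6122 UMIs in replicate 5300 and 14107 against 10011 in replicate 5301. A pairing with a limit on the gap in depth was not run for this test.

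**Figure D3:**
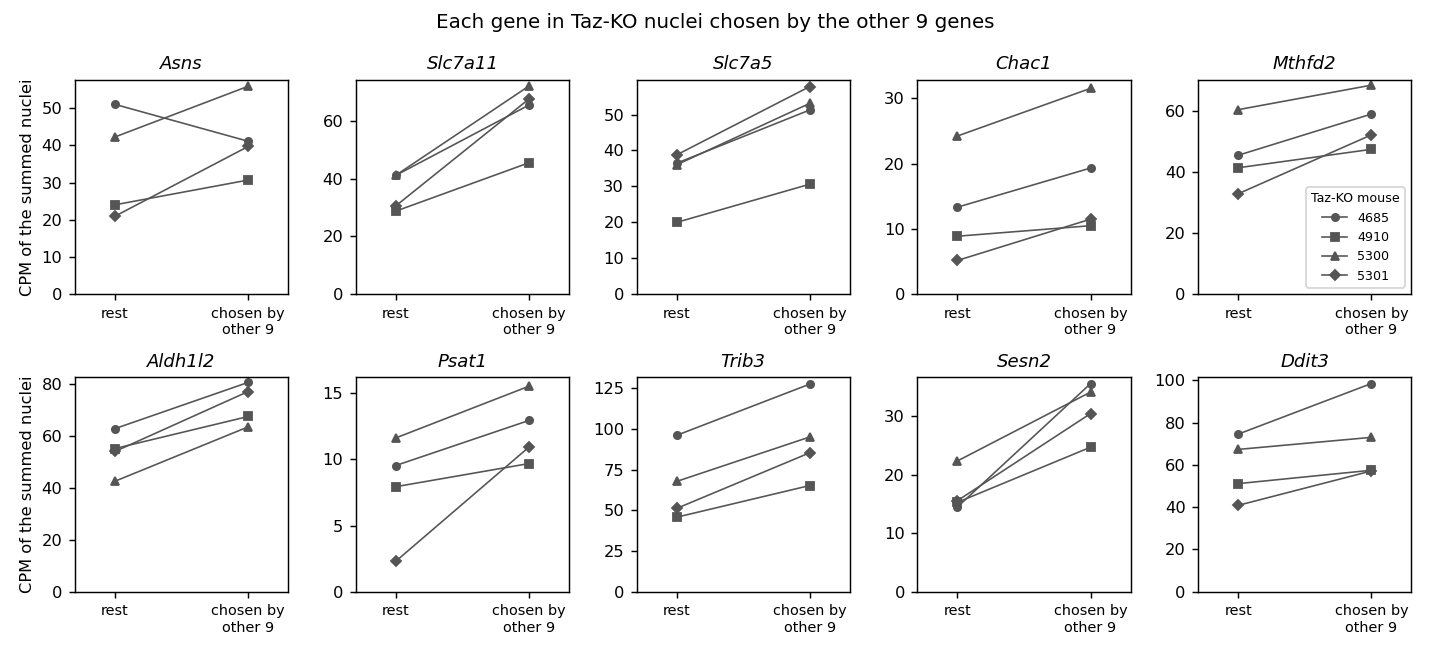
Level of each gene (CPM, linear axis of its own per panel) in the remaining Taz-KO cardiomyocyte nuclei and in those chosen by the other 9 genes, with 1 line and symbol per mouse. All 4 lines rise for every gene but Asns, where the line of replicate 4685 falls from 51.0 to 41.1 CPM.

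Beyond the 10 genes, the nuclei above the cut of Taz-KO mice carried more transcripts of genes for amino acid import, tRNA charging, serine and proline synthesis and stress signaling, named in the next paragraphs, than the other cardiomyocyte nuclei of the same hearts. With the mouse as a block, 581 genes were higher (3.64%) and 611 lower (3.82%), together 7.46% of 15979 tested by edgeR at an adjusted p of 0.05, the 10 genes left out. In lists of 7 to 23 genes, 0 or 1 call does not stand apart from that share. Of all genes tested, 12.3% were higher in each of the 4 mice and 18% were lower in each. The median change of all genes was 0.0024 on the log2 scale. The nuclei above the cut were deeper in each mouse, with medians of 25640.5 against 21405, 14026.5 against 13250, 8534 against 6122 and 14107 against 7785.5 UMIs in replicates 4685, 4910, 5300 and 5301. Their median mitochondrial percentage was lower in each mouse, with 1.503 against 2.15, 11.6 against 12.1, 7.33 against 9.31 and 0.301 against 0.590. Among pairs of nuclei matched in depth to within 5%, called depth-matched nuclei in what follows, 298 genes were higher and 235 lower, of which 287 and 205 were called in all nuclei too. In these pairs the mitochondrial percentages were 1.48 against 2.06, 11.74 against 11.72, 8.35 against 8.47 and 0.339 against 0.314, and their part in the changes was not tested. Without replicate 4910 the calls were 161 and 109, and without replicate 5300 they were 86 and 34. These mice hold 3966 and 3639 of the 8096 Taz-KO nuclei above the cut. Of the genes named in the next paragraphs, 27 lost their call without replicate 4910 and 34 without replicate 5300, each with its direction kept. Cth, Lars, Iars, Eprs, Yars, Slc7a1, Slc1a4, Slc3a2, Aldh18a1, Atf6, Ern1, Ero1l, Map1b, B4galnt2, Ptprt, Ostn and Lhfpl2 were called under each alternative that kept the block and the adjusted p of 0.05. The stricter thresholds of the study (adjusted p of 0.001 and a log2 change of 0.58) left 46 genes higher and 7 lower.

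Cytosolic aminoacyl-tRNA synthetases, which load amino acids onto tRNAs for translation in the cytosol, were higher in 12 of 20 tested and lower in none. Of the 20, 19 had a positive change, and the median was 0.29. With a cardiomyocyte share of 2 times the library, 8 were called. Lars, for leucine, was at 160, 149, 205 and 177 CPM below and 281, 207, 298 and 318 CPM above the cut in Taz-KO replicates 4685, 4910, 5300 and 5301, a change of 0.65 ± 0.07 (SE; edgeR adjusted p = 6.2e-07). Iars, for isoleucine, rose by 0.46, Eprs, for glutamate and proline, by 0.44 and Yars, for tyrosine, by 0.39 on the log2 scale, each in 4 of 4 mice. Of the mitochondrial synthetases 0 of 17 were called by edgeR or DESeq2, 4 were higher and 1 lower at an unadjusted p under 0.05, and their median was 0.04. Lars2, for leucine in mitochondria, was at −0.18 (edgeR adjusted p = 0.078).

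Amino acid transporters were higher in 9 of 14 and lower in 1, with a median of 0.31, and 5 were higher and 0 lower under the stricter cardiomyocyte share. Slc7a1, the carrier of arginine and lysine, was at 93.2, 74.6, 125 and 144 CPM below and 200, 111, 183 and 247 CPM above the cut (0.69 ± 0.07 SE; edgeR adjusted p = 4.7e-07). Slc6a9, a glycine carrier, rose by 0.70, Slc1a4, for alanine, serine and cysteine, by 0.68, and Slc3a2, the heavy chain that partners both Slc7a5 and Slc7a11, by 0.44. Slc1a5, a glutamine carrier, was the 1 that fell, by 0.27, and it was not called in the depth-matched nuclei (−0.28, edgeR adjusted p = 0.117), though it was called when nuclei were paired with the nearest in depth and no limit was set (−0.28, edgeR adjusted p = 0.0492). Its call was also lost with DESeq2, with no filter on low counts, at the cut of 5, under the stricter cardiomyocyte share, among nuclei of 3000 to 12000 UMIs and without nuclei that carried other-cell markers.

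Genes of serine and one-carbon metabolism outside the rule were higher in 4 of 9 tested, with none lower. The count was 2 in nuclei depth-matched within 5%, among nuclei of 3000 to 12000 UMIs, under the stricter cardiomyocyte share and with DESeq2, and 1 at a cut of 5 UMIs. Phgdh, the first enzyme of serine synthesis, was at 6.66, 13.9, 22.4 and 9.74 CPM below and 19.3, 18.3, 31.6 and 18.4 CPM above the cut (0.53 ± 0.09 SE; edgeR adjusted p = 3.6e-04). Mthfd1l, of the mitochondrial folate cycle, rose by 0.49 and Shmt1 by 0.27, and the call of Shmt1 was lost in the depth-matched nuclei. In the list for asparagine, proline and transsulfuration 5 of 13 were higher and none lower, with 3 of 11 under the stricter cardiomyocyte share, 3 with DESeq2 and 2 at the cut of 5. Cth, which makes cysteine from cystathionine, was at 44.96, 23.1, 40.5 and 42.9 CPM below and 84.1, 43.4, 79.6 and 99.5 CPM above the cut. It changed 2.02-fold (1.01 ± 0.07 SE on the log2 scale; edgeR adjusted p = 1.0e-10). Aldh18a1 and Pycr1, the first and last enzymes of proline synthesis, rose by 0.59 and 0.57, and Pck2, the mitochondrial PEP carboxykinase, by 0.47.

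Among stress response transcription factors 6 of 13 were higher and none lower, with a median of 0.08. The largest of these changes was that of Atf3, at 16.7, 2.50, 9.78 and 14.2 CPM below and 19.8, 4.14, 14.5 and 22.6 CPM above the cut (0.66 ± 0.10 SE; edgeR adjusted p = 2.9e-04). Nupr1 rose by 0.42, Atf6, a sensor of the endoplasmic reticulum, by 0.39, and Jdp2 by 0.37. The transcript of Atf4, whose protein is set mainly by translation, was at −0.05 and did not pass the test. In the list of eIF2alpha kinases and their phosphatase 1 of 11 was higher, Ppp1r15a, the regulatory subunit that returns eIF2alpha to its unphosphorylated form, by 0.50, a call that was lost among nuclei of 3000 to 12000 UMIs. Gadd45a, by 0.47, was the 1 of 11 cell death genes called, and its call was lost under the stricter cardiomyocyte share.

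**Figure D4:**
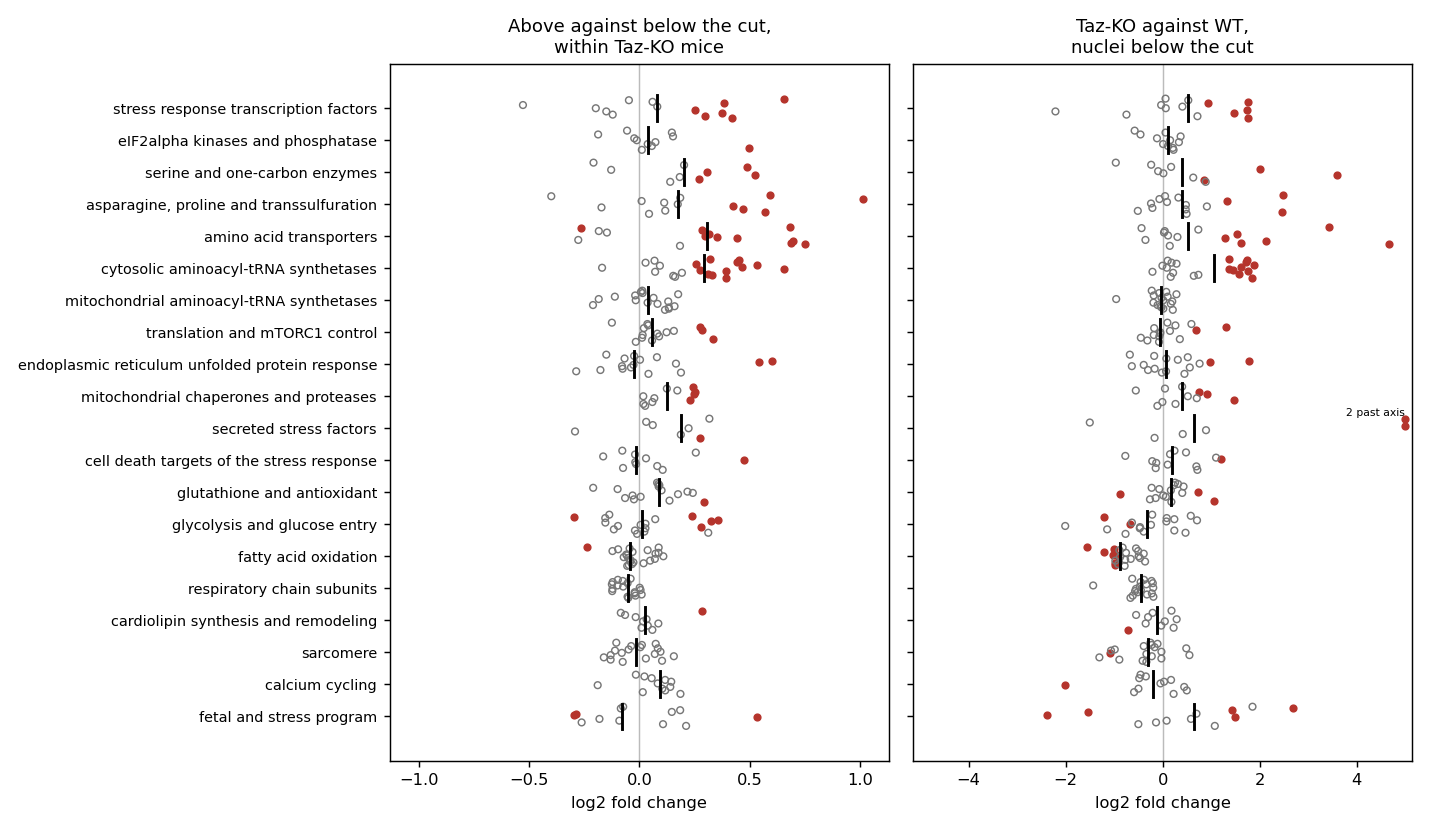
Log2 fold change of each gene by list, left between nuclei above and below the cut within Taz-KO mice, right between Taz-KO and WT nuclei below the cut. Each point is a gene, filled red where called by edgeR, and the black bar is the list median. Cytosolic synthetases center at 0.29 on the left and 1.05 on the right, fatty acid oxidation genes at −0.04 and −0.88, and 2 secreted factors are drawn at the right edge because they lie past the axis.

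Protein quality control changed in part. In the endoplasmic reticulum list 2 of 16 were higher, and the median was −0.03. Ern1, which encodes the stress sensor IRE1, was at 288, 197, 129 and 239 CPM below and 437, 287, 191 and 356 CPM above the cut (0.60 ± 0.06 SE; edgeR adjusted p = 2.1e-07), and Ero1l, an oxidase for disulfide bonds, rose by 0.54. Mitochondrial chaperones and proteases were higher in 4 of 11, with small changes of 0.25 for Dnaja3, 0.25 for Hspa9, 0.24 for Afg3l2 and 0.23 for Lonp1. All 11 had a positive change. At the cut of 5 and without nuclei that carried other-cell markers Dnaja3 and Hspa9 remained called, and none of the 11 was called under the stricter cardiomyocyte share, where the median of the list was 0.03. In the list for mTORC1 and translation control 3 of 15 were higher, namely Sqstm1 by 0.33, Eif4ebp1 by 0.29 and Deptor by 0.28, with 1 called among nuclei of 3000 to 12000 UMIs and 1 under the stricter cardiomyocyte share. Of 16 antioxidant genes Txnrd1 alone was called, higher by 0.30, and of 10 cardiolipin genes Crls1, the cardiolipin synthase, higher by 0.29. The call of Crls1 was lost with DESeq2, at the cut of 5, under the stricter cardiomyocyte share, among nuclei of 3000 to 12000 UMIs and without nuclei over 2 times the median UMIs.

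The secreted stress hormone Gdf15 was called across the cut in some settings only. It was at 23.3, 24.7, 49.1 and 8.95 CPM below and 35.4, 30.7, 47.0 and 16.1 CPM above the cut, higher in 3 of 4 mice, and did not pass the test (0.22 on the log2 scale, edgeR adjusted p = 0.12). In depth-matched nuclei it was at 0.30 (edgeR adjusted p = 0.032), in the pairs without a limit at 0.25 (edgeR adjusted p = 0.080), with no filter on low counts at 0.24 (edgeR adjusted p = 0.036), and without replicate 4685 it was called at 0.21, while among nuclei with a stricter cardiomyocyte share it was at −0.03. Vegfa rose by 0.28 and was the 1 of 7 secreted factors called, and its call was lost in nuclei depth-matched within 5% (0.25, edgeR adjusted p = 0.103) and under the stricter cardiomyocyte share (0.22, edgeR adjusted p = 0.121).

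Contractile and respiratory genes held no calls across the cut in Taz-KO mice, where 7.46% of all genes tested were called. No gene was called by edgeR among 18 respiratory chain subunits, 18 sarcomere genes and 12 calcium cycling genes, with medians of −0.05, −0.02 and 0.09. DESeq2 called 0 of them too, and at an unadjusted p under 0.05 edgeR had 0, 3 and 4 of these genes. Of 23 fatty acid oxidation genes only Acaa2, the last enzyme of the mitochondrial spiral, was called, at 56.6, 86.8, 90.6 and 35.6 CPM below and 40.0, 78.0, 73.5 and 24.9 CPM above the cut (a log2 change of −0.24, edgeR adjusted p = 0.024), and this call was lost in both depth matchings, with DESeq2, at the cut of 5, under the stricter cardiomyocyte share, among nuclei of 3000 to 12000 UMIs and without nuclei over 2 times the median UMIs. Among glycolysis genes Hk1 rose by 0.35, Hk2 by 0.33 and Pfkfb2 by 0.28, while Eno3 fell by 0.30, and 5 of 18 were called in all. In nuclei depth-matched within 5% Eno3 and Pfkfb2 were not called (edgeR adjusted p = 0.061 and 0.092), and under the stricter cardiomyocyte share 1 gene was higher and 1 lower. In the fetal and stress program Map1b rose by 0.53, and Crhr2 and Ccn2 fell by 0.30 and 0.29. Both decreases lost their call at the cut of 5, under the stricter cardiomyocyte share and among nuclei of 3000 to 12000 UMIs. With DESeq2 Ccn2 was not called (adjusted p = 0.073) and Crhr2 received no adjusted p, and in depth-matched nuclei Ccn2 was at −0.07 (edgeR adjusted p = 0.72).

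Among called genes outside the rule that were higher in all 4 mice and reached 10 CPM in a class, Gm and Rik models left out, the 10 largest increases held 1 gene of the lists, Cth. The others were B4galnt2 (1.06), Ptprt (0.87), Fam227b (0.84), Ostn (0.83), Tenm4 (0.82), Lhfpl2 (0.80), Trp63 (0.80), Mei4 (0.77) and Acox2 (0.75). Ostn, which encodes the secreted peptide osteocrin, was at 16.7, 22.7, 19.3 and 15.5 CPM below and 53.0, 39.4, 31.6 and 27.4 CPM above the cut. In WT nuclei below the cut it was at 0.0712, 0.0102, 0.0915 and 0.0529 CPM, far below every Taz-KO mouse. Tenm4, a teneurin of the cell surface, was at 658, 1181, 781 and 1112 CPM below and 1744, 1664, 1172 and 1938 CPM above the cut, and at 3.10 to 4.74 CPM in WT nuclei below it. Fam227b, Tenm4 and Mei4 were not called among depth-matched nuclei, nor, with Trp63, in the pairs without a limit, and Fam227b, Tenm4, Trp63 and Mei4 were not called once nuclei with markers of other cell types were left out.

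Among the largest decreases by the same criteria was that of Kcnj3, a subunit of the channel that acetylcholine opens in atrial cells. It was at 421, 391, 203 and 182 CPM below and 194, 291, 121 and 118 CPM above the cut (a log2 change of −0.64 ± 0.07 SE, edgeR adjusted p = 7.2e-06). Fgf14, which modulates sodium channels, was at 253, 165, 159 and 158 CPM below and 134, 121, 99.5 and 88.4 CPM above the cut, with adjusted p = 6.4e-07 by edgeR and 0.057 in depth-matched nuclei (0.0086 in the pairs without a limit). Others were Mbp (−0.70), Armh4 (−0.60), Slit3 (−0.60), Pik3ap1 (−0.58), Dpp4 (−0.56), Map2k6 (−0.54) and Ephb1 (−0.54). Slit3, Dpp4 and Ephb1 were not called in depth-matched nuclei, and Slit3 and Dpp4 were not called in the pairs without a limit either.

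**Figure D5:**
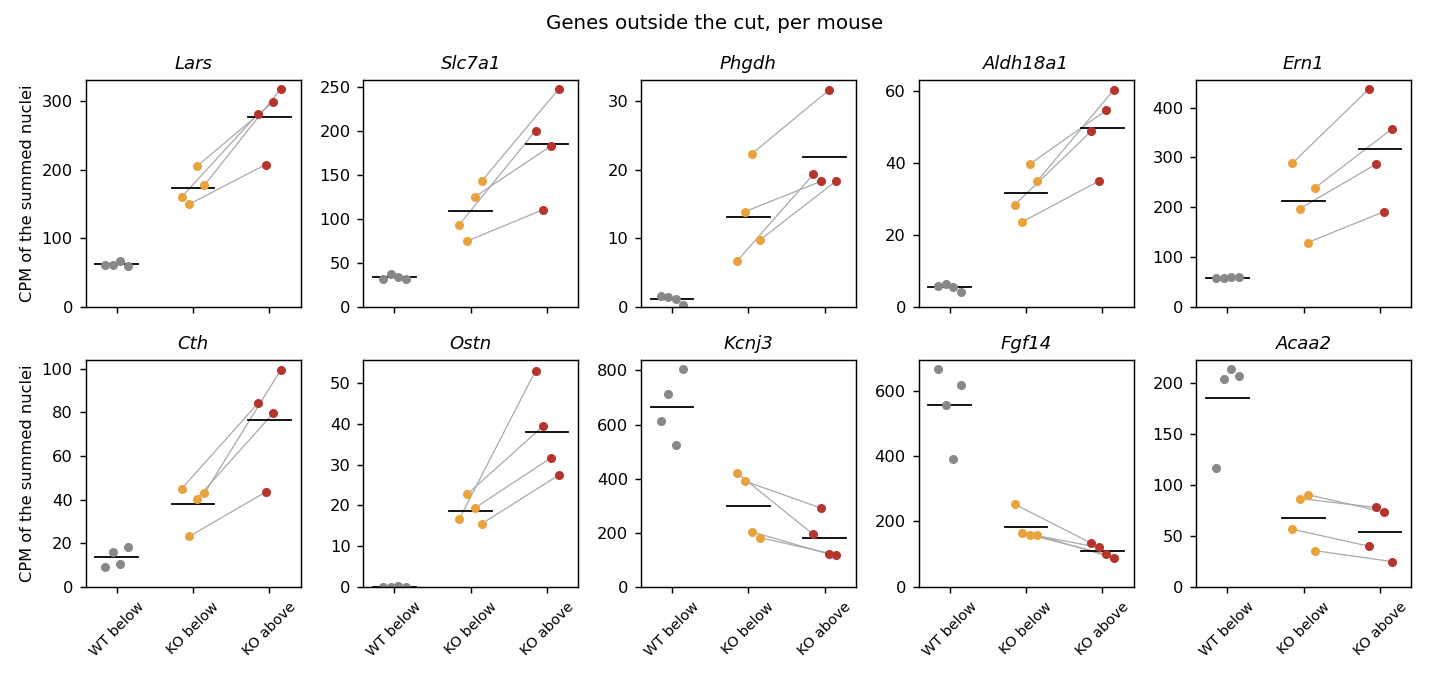
Level (CPM of the summed nuclei, linear axis of its own per panel) of 10 genes outside the rule in WT nuclei below the cut and in Taz-KO (KO) nuclei below and above the cut, with 1 point per mouse, a line at the mean and gray lines joining the classes of a mouse. All 4 lines rise for Lars, Slc7a1, Phgdh, Aldh18a1, Ern1, Cth and Ostn and fall for Kcnj3, Fgf14 and Acaa2.

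Summed over classes of unequal depth, markers of other cells moved with the cut and are given for that reason. In Taz-KO nuclei thinned to equal depth and grouped by the score, as given further on, only some markers fell. Mean endothelial and macrophage markers were lower at the highest step held by all 4 mice than at the lowest. Mean fibroblast and atrial markers were not. In Taz-KO mice the summed fibroblast markers above the cut were 0.729 to 0.880 times those below it, the endothelial markers 0.687 to 0.801 times and the macrophage markers 0.567 to 0.932 times. Atrial markers, which include Kcnj3, were at 0.597 to 0.882 times, ventricular markers at 0.876 to 0.974 times and cardiomyocyte markers at 0.969 to 1.06 times. Flt1 and Ptprb of endothelial cells and Dcn of fibroblasts were called lower, with log2 changes of −0.31, −0.39 and −0.33 by edgeR. Pericyte markers were at 0.691 to 0.903 times and B lymphocyte markers at 0.556 to 0.822 times. Adipocyte markers were higher above the cut in 2 of the 4 mice (up to 2.57 times), and smooth muscle, mesothelial, T lymphocyte, Schwann and cycling markers in 1 mouse each. The part of these transcripts in the decreases was not tested. With nuclei that carried other-cell markers left out, 330 genes were higher and 188 lower, Kcnj3 was at −0.68 (edgeR adjusted p = 0.031), and Mbp, Slit3, Pik3ap1 and Ephb1 were not called.

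The nuclei that stayed below the cut let the genotypes be compared outside the chosen nuclei. Of 19291 genes, 842 were higher (4.36%) and 526 lower (2.73%) in Taz-KO mice by edgeR (7.09% in either direction), and the 4 mice of a genotype lay all above those of the other for 8.19% and all below for 5.33% of genes. This comparison uses the nuclei that the cut left, and only 29 of them come from Taz-KO replicate 4685. The counts were 425 and 281 without Taz-KO replicate 5300 and 527 and 350 without Taz-KO replicate 4910. Cytosolic synthetases were higher in 10 of 20 and none was lower, with a median of 1.05 against −0.01 over all genes. Lars was at 61.5, 61.6, 66.4 and 59.0 CPM in WT mice, below all Taz-KO mice, a 2.59-fold difference (edgeR adjusted p = 5.7e-04). Transporters were higher in 6 of 14, serine and one-carbon enzymes in 3 of 10, the asparagine, proline and transsulfuration list in 3 of 14 and transcription factors in 5 of 13, with none lower in any of these. Slc7a1 differed 3.08-fold, Phgdh 12.0-fold, Aldh18a1 5.56-fold and Nupr1 3.41-fold (edgeR adjusted p from 2.9e-05 to 0.015). Gdf15 was at 0.352 to 1.299 CPM in WT mice, 34.6-fold below the Taz-KO mice (edgeR adjusted p = 1.2e-04).

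In that comparison more genes of fatty acid oxidation were called lower than the 1 across the cut, and the difference between the comparisons, which share the Taz-KO nuclei below the cut, was not tested. Of 23 tested, 8 were lower and none higher in Taz-KO nuclei below the cut, the median was −0.88 and no gene had a positive change. Acaa2 was at 117, 205, 214 and 207 CPM in WT mice and was lower in each of the 4 Taz-KO mice (0.337-fold, edgeR adjusted p = 0.0058). All 18 respiratory chain subunits had a negative change, with a median of −0.45. None was called by edgeR, with 2 lower at an unadjusted p under 0.05, and DESeq2 called 1 lower. Of simulated 2-fold changes this edgeR test recovered 30% or 6%. Of 17 mitochondrial synthetases edgeR called 0, with 1 lower at an unadjusted p under 0.05, DESeq2 called 1 lower, and the median was −0.03. Crhr2, a receptor of urocortin, was at 66.8, 81.5, 59.4 and 86.4 CPM in WT mice and at 11.7, 20.1, 15.8 and 9.74 CPM in Taz-KO mice (edgeR adjusted p = 1.4e-04). Ern1 differed 3.42-fold, Kcnj3 0.408-fold and Fgf14 0.297-fold between the genotypes.

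The 196 WT nuclei above the cut were compared with the other WT nuclei in the same way, on far fewer nuclei. Within WT mice, with 25 to 82 such nuclei per mouse, 77 genes were higher (0.449%) and 165 lower (0.962%), together 1.41% of 17144 by edgeR, and 34 and 21 without replicate 4686. None of the 20 cytosolic synthetases, 13 transporters, 10 serine and one-carbon enzymes and 13 genes of the asparagine, proline and transsulfuration list was called, with medians of 0.05, −0.04, −0.12 and 0.08. DESeq2 called 0 of them too, and 1, 2, 0 and 2 of them passed an unadjusted p of 0.05 by edgeR. A missing call is not absence of a change here, since this test recovered 54% or 41.5% of simulated 2-fold changes. Of 13 stress response transcription factors 1 was called higher and none lower by edgeR, with a median of −0.04. Of 12 calcium cycling genes 3 were lower, namely Slc8a1, the sodium-calcium exchanger, by 0.34, Cacna1c, the pore of the L-type calcium channel, by 0.30 and Ank2 by 0.28. These nuclei were shallower than those below the cut, with medians of 9788 against 13432, 9808 against 13198.5, 8702.5 against 9752.5 and 9041 against 11305 UMIs, and the summed fibroblast markers were 1.12 to 1.26 times as high in them. Their median mitochondrial percentage was 9.10 against 6.80, 19.5 against 16.7, 10.2 against 8.92 and 4.78 against 4.82. Abca8a, Pdgfra and Dcn of fibroblasts were called higher, by 0.69, 0.59 and 0.32 on the log2 scale by edgeR. The part of these transcripts in the WT nuclei was not tested.

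The difference between the genotypes in the change across the cut was tested itself. It was more positive in Taz-KO mice for 289 genes (1.72%) and more negative for 198 (1.18%), together 2.9% of 16770 by edgeR, with 42 and 52 genes without WT replicate 4686 and 50 and 89 without Taz-KO replicate 5300. Cth rose in Taz-KO nuclei and was at −0.55 in WT nuclei, a difference of 1.62 (edgeR adjusted p = 3.1e-04). Ern1 was at 0.60 and −0.32 (edgeR adjusted p = 1.2e-04) and Atf6 at 0.39 and −0.15 (0.0014). For Lars (0.65 and 0.16) the adjusted p of the difference was 0.053 by edgeR, and 1 of the 20 cytosolic synthetases passed this test. In the asparagine, proline and transsulfuration list 2 of 13 did, among transporters 1 of 14 was more positive and 1 more negative, and of 9 serine and one-carbon enzymes none was called by edgeR or DESeq2, with 0 at an unadjusted p under 0.05. For most genes of these lists a difference between the genotypes in the change across the cut was thus not shown. Of the 12 calcium cycling genes 4 were more positive in Taz-KO mice (Slc8a1, Cacna1c, Trdn and Camk2d, by 0.395 to 0.478) and 1 more negative (Hrc). Summed fibroblast markers above the cut were 0.729 to 0.880 times those below it in Taz-KO and 1.12 to 1.26 times in WT mice. The part of these markers in the differences was not tested. Of 18 respiratory chain subunits Cox6a2 and Cox7a1 were more negative, and their changes within Taz-KO mice turned positive in both depth matchings. Nuclei above the cut were deeper than those below it in each Taz-KO mouse and shallower in each WT mouse. The difference between the genotypes was not tested in depth-matched nuclei. Directly compared above the cut, Taz-KO nuclei were higher than WT nuclei in 496 genes (3.86%) and lower in 424 (3.3%), together 7.16% of 12852 by edgeR, and in 269 and 244 genes without WT replicate 4909. The cystine importer Slc7a11, one of the 10 genes, was at 67.6, 59.2, 81.0 and 75.0 CPM in Taz-KO and at 48.9, 42.9, 107 and 81.5 CPM in WT nuclei above the cut, where the mice overlapped.

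The lists were also summed along the range of the score itself, without the cut. Nuclei thinned to 2000 UMIs were grouped by how many UMIs of the 10 genes they held. In Taz-KO mice the cytosolic synthetases summed to 16.2, 17.1, 19.1 and 18.8 UMIs per 10,000 (means of 4 mice) in nuclei with 0, 1, 2 and 3 to 4 such UMIs. The asparagine, proline and transsulfuration list stood at 6.97, 7.17, 7.71 and 8.44, with 6.53 to 7.42 over mice at the first step and 6.63 to 11.25 at the last. The transcription factors stood at 12.6, 13.6, 15.5 and 14.5. The synthetases and transcription factors were thus lower at 3 to 4 UMIs than at 2. Only replicate 5300 held at least 10 nuclei with 5 or more UMIs (49), where the synthetases stood at 21.3, as they did at 3 to 4 UMIs in that mouse, the transcription factors at 14.8 and the serine and one-carbon enzymes at 2.14. Serine and one-carbon enzymes stood at 1.66, 1.93, 1.80 and 1.71 and transporters at 10.24, 10.49, 10.78 and 10.72, with no steady order. Fatty acid oxidation genes stood at 37.1, 37.3, 37.3 and 38.7, respiratory chain subunits at 31.5, 31.8, 33.4 and 36.2, and the fetal and stress program at 25.2, 27.2, 27.5 and 32.95, where the last value rests on 55 in replicate 4685, from 20 nuclei, against 23.5 to 27.1 in the other 3 mice. At 0, 1, 2 and 3 to 4 UMIs, fibroblast markers of Taz-KO mice stood at means of 18.9, 18.3, 18.5 and 19.0. Atrial markers stood at 4.89, 5.57, 4.72 and 6.45, with 1.53 to 13 over mice at the last of these steps. Endothelial markers stood at 3.37, 2.93, 2.81 and 2.71 and macrophage markers at 3.15, 2.69, 2.57 and 2.70. In WT mice the synthetases summed to 5.83, 5.93 and 5.97 at 0, 1 and 2 UMIs. Taz-KO nuclei with none of the 10 transcripts at this depth also lay above every WT step for the synthetases, with 13.8 to 17.7 against 3.61 to 7.26 per 10,000 over mice. A 0 at this depth is not absence. The 0 step held 77, 4329, 2356 and 292 nuclei of Taz-KO replicates 4685, 4910, 5300 and 5301. Before thinning, 2, 403, 467 and 122 nuclei below the cut held none in these mice.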

How the data were processed

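Nuclei of cryopreserved hearts of 4 WT and 4 Taz-KO mice were sequenced with 10x Genomics 3' v3.1 chemistry. Per barcode and gene, the authors deposited UMI counts without normalization. Reads, introns included, had been aligned to mm10 by Cell Ranger 6.0.1. SoupX and DoubletFinder, which the study ran after these counts, were not applied here, so free RNA and doublets remain in the counts. As alternatives, nuclei over 2 times the median UMIs of their mouse, or with markers of other cell types, were left out. Mitochondrial genes were left out of all totals.

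The nuclei, the gene lists and the genes named were chosen with earlier results of these data known. Counts of the nuclei above and below the cut were summed per mouse, with at least 10 nuclei per sum. The test was that of edgeR 4.0.16 under R 4.3.3 (TMM, filterByExpr, robust quasi-likelihood F test, Benjamini-Hochberg adjustment over all genes tested, threshold 0.05). The mouse was a block where both classes of a mouse were compared, since they come from the same animal. Where the mouse was a block, p-values measure how the change within a mouse spreads between mice, counting error of the sums included. Elsewhere they measure the spread of levels between mice. DESeq2 1.42.0 was the alternative tool. Scripts were tested on simulated data. With the spread between sums set by the trend over genes, 4.12% of calls across the cut in Taz-KO mice were false. The shares were 3.23% between genotypes below the cut and 5.61% for the difference between the changes. With a spread of its own for each gene they were 17.4%, 20% and 10%, above the threshold. In WT mice and above the cut they were at most 5%. Of simulated 2-fold changes, 93% and 92.5% were recovered across the cut in Taz-KO mice with the first and the second spread. The shares were 54% and 41.5% in WT mice and 50.5% and 45% for the difference between the changes. Between genotypes they were 30% and 6% below the cut and 11% and 9.5% above it. In these other comparisons a gene not called is thus not shown to be unchanged. Endothelial and fibroblast barcodes had at least 3 times their library's share of the markers of that type and a cardiomyocyte share below that of the library. Outside the rule and Taz, genes were named if among the 10 largest changes per direction with an adjusted p below 0.05, the same direction in all 4 mice, a mean of at least 10 CPM in one class and a symbol that is not a Gm or Rik model, or if among the up to 4 smallest adjusted p of a list. Slc1a5, Atf4, Flt1, Ptprb, Dcn, Abca8a, Pdgfra, Slc8a1, Cacna1c, Ank2, Trdn, Camk2d, Cox6a2 and Cox7a1 were added after their values were seen. Where the symbol of Ddit3 occurred more than once, the copy with the most UMIs was used. The 20 lists hold 287 genes. Some genes that met this rule are not reported here.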

Additional observations from a re-analysis of the deposited data

Results flagged for a closer look

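For 17 named genes the change across the cut differed between Taz-KO and WT mice, where 2.9% of all 16770 genes tested were called. The difference itself was tested (edgeR, interaction of genotype and class, adjusted over all genes). On the log2 scale, Taz-KO minus WT, it was 1.62 for Cth (adjusted p = 3.1e-04), 1.71 for Atf3 (0.017), 0.93 for Ern1 (1.2e-04), 0.79 for Ero1l (0.011), 0.56 for Atf6 (0.0014), 0.53 for Vegfa (0.0014), 0.53 for Pfkfb2 (0.0083) and 0.51 for Hk1 (0.026). Each of these 8 genes was positive in Taz-KO and negative in WT nuclei. The difference was −0.87 for Slit3 (0.0402), −0.72 for Slc1a5 (0.0187) and −0.41 for Hrc (0.0463), which were negative in Taz-KO and positive in WT nuclei. Among calcium cycling and respiratory genes, none of them called in Taz-KO mice, it was 0.48 for Slc8a1 (0.0049), 0.43 for Cacna1c (0.014), 0.42 for Trdn (0.014), 0.39 for Camk2d (0.023), −0.42 for Cox6a2 (0.024) and −0.41 for Cox7a1 (0.0466). The changes of Cox6a2 and Cox7a1 within Taz-KO mice turned positive in both depth matchings. Nuclei above the cut were deeper than those below it in each Taz-KO mouse and shallower in each WT mouse. None of these differences between genotypes was tested in depth-matched nuclei. The count of 17 cannot be set against the share of all genes. The genes were named for their change within Taz-KO mice, which is part of this difference, or added after their values were seen.

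In 4 of 62 groups of 4 Taz-KO mice 1 mouse lay far from the rest by the Dixon criterion, which chance meets in about 1 in 20 groups. Above the cut, Mthfd2 was highest in replicate 5300, at 81.0 CPM, and Trp63 was lowest in the same replicate, at 37.6 CPM. Below the cut, Trib3 was highest in replicate 4685, at 48.3 CPM, and so was Fgf14, at 253 CPM. The last pair of values rests on 29 nuclei.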

How the results depend on the processing

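Both classes of nuclei come from the same mouse, so the block pairs them by animal. Without that block (no replicate block), 0 genes were higher and 0 lower across the cut in Taz-KO mice by edgeR, with 125 and 45 at an unadjusted p under 0.05, and 0 of the 10 genes left out in turn were called. Across the cut in Taz-KO mice (581 higher, 611 lower), DESeq2 called 325 and 294 genes, a cut of 5 UMIs and 5 per 10,000 called 267 and 129, a cardiomyocyte share of 2 times the library 177 and 78, leaving out nuclei over 2 times the median UMIs 374 and 249, leaving out nuclei with other cell type markers 330 and 188, a depth matching within 5% (chosen after the data were seen) 298 and 235, and the thresholds of the study (adjusted p of 0.001 and log2 change of 0.58) 46 and 7. Genes called lower were 370 among nuclei of 3000 to 12000 UMIs and 350 in a looser depth matching. Leaving out 1 mouse gave 86 to 864 higher and 34 to 944 lower, the lowest without replicate 5300 and the highest without replicate 4685. In WT mice DESeq2 called 35 and 16, the stricter cardiomyocyte share 42 higher, the removal of nuclei with other markers 21 higher, the thresholds of the study 17 and 4, and leaving out 1 mouse 34 to 90 and 21 to 199, the fewest without replicate 4686. For the difference between these changes DESeq2 called 102 more positive, the stricter cardiomyocyte share 176 and 101, the removal of deep nuclei 99 more negative, the removal of nuclei with other markers 142 and 40, the thresholds of the study 14 and 29, and leaving out 1 mouse 42 to 351 and 52 to 282. Between genotypes below the cut the stricter cardiomyocyte share called 553 higher, nuclei of 3000 to 12000 UMIs 509 and 301, the thresholds of the study 103 and 52, and leaving out 1 mouse 425 to 807 and 281 to 511. Above the cut DESeq2 called 685 lower, no filter on low counts 770 higher, the stricter cardiomyocyte share 206 and 172, the thresholds of the study 61 and 40, and leaving out 1 mouse 269 to 441 and 244 to 489. Of the 10 genes left out in turn 5 were called under the stricter cardiomyocyte share and 4 to 10 without 1 mouse. The mean share above the cut was 0.0652% in WT and 8.03% in Taz-KO mice at 2000 UMIs, 0.296% and 27.7% at 4000 UMIs, and 0.0695% and 32.9% at the cut of 5, and 0.819% to 1.05% and 51.4% to 65.1% without 1 mouse. Under the stricter cardiomyocyte share the changes of Taz and Gdf15 across the cut, neither called, turned to −0.018 and −0.025. The changes of Cox6a2 and Cox7a1, neither called, turned to 0.018 and 0.024 in the looser depth matching and 0.10142 and 0.10021 in that within 5%, that of Cox6a2 to 0.066 at the cut of 5 and that of Cox7a1 to 0.018 among nuclei of 3000 to 12000 UMIs. The cut of 5 left too few WT nuclei for the comparisons that need WT nuclei above the cut. The causes were not tested. The lack of calls without the block, the 29 nuclei below the cut in replicate 4685 and the 25 to 82 WT nuclei above it limit what these mice can show.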
